A study of Mus musculus with 2 samples.

Results

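The circadian clock genes examined here are the 10 genes Arntl, Clock, Npas2, Per1, Per2, Per3, Cry1, Cry2, Dbp and Tef, taken by name from the array design, and every probe that carries one of these names was read. They had 13 probes with 1 spot each, out of 39390 usable probes for 30153 gene names. RNA of 2 samples was compared, 1 per group. Mature hepatocytes (MHs) came from normal livers and were purified by Percoll gradient centrifugation. Sox9+EpCAM- cells, the biphenotypic hepatocytes that carry hepatocyte and bile duct features, were sorted by FACS. They came from Sox9-EGFP mice on a diet with DDC, a compound that injures bile ducts. In Sox9-EGFP mice the fluorescent protein reports activity of the Sox9 gene, and per the methods the healthy livers came from this line too, so the reporter is shared by both groups. The labels give both samples as male. The age of the mice, the number of mice behind each array, the feeding time for these arrays and the time of day at which cells were isolated are not given in the sources used here. Clock transcripts change over the day, and the sex-linked genes given below also differ between the samples, so time of day, sex, injury and isolation method cannot be told apart in any value below.

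The mammalian clock is a loop of transcription factors that feeds back on itself once a day in nearly every cell, the hepatocyte included. ARNTL (also called BMAL1) pairs with CLOCK, or with its relative NPAS2, and the pair switches on genes that carry E-boxes, among them Per and Cry. The PER and CRY proteins build up, enter the nucleus and repress the pair, while the nuclear receptors of the Rev-erb and ROR families set the level of Arntl through sites called ROREs. DBP and TEF are factors of the PAR bZIP family that pass the rhythm on through D-boxes to liver genes of drug, bile acid and heme metabolism.

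These connections can be read in part in the promoters. The windows shown run from 250 bases before to 50 bases after a start site of the gene, are taken from RefSeq on build GRCm38.p6, and are printed in the direction of the gene. All members except Per2 had a window, 14 windows for 9 genes. The letters searched for on both strands were CACGTG (E-box), CACGTT (E'-box), TTATGTAA and TTACGTAA (D-box), TGACGTCA (the cAMP response element) and the RORE, and no match overlapped another. The first 3 windows belong to members with the larger differences, and Arntl and Nr1d1, the gene of the receptor REV-ERB alpha, show the link between the loops. Capitals mark the matches.
Per1, chr11:69098699-69098998, plus strand: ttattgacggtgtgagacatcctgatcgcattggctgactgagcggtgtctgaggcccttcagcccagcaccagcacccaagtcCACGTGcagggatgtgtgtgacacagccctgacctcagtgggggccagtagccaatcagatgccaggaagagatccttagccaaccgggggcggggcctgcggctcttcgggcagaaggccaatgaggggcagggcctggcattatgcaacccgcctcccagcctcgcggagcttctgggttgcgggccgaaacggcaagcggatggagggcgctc
Per3, chr4:151044616-151044915, minus strand: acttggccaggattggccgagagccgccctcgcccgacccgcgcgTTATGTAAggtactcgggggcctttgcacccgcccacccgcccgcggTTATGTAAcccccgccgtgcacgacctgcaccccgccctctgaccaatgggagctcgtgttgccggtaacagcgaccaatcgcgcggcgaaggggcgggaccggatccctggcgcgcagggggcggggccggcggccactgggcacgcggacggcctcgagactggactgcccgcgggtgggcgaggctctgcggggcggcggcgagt
Cry1, chr10:85185005-85185304, minus strand: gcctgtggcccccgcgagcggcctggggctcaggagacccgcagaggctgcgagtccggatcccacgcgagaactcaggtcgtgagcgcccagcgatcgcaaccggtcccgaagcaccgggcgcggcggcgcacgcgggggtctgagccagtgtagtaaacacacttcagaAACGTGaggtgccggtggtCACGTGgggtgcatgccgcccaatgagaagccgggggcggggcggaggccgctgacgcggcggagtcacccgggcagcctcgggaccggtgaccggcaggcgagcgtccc
Arntl, chr7:113207261-113207560, plus strand: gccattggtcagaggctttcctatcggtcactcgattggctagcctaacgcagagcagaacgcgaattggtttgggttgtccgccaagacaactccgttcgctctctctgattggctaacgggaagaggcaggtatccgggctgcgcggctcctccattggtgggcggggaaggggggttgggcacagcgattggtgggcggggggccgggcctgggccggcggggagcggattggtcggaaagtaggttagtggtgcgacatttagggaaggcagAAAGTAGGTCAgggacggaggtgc
Nr1d1, chr11:98775328-98775627, minus strand: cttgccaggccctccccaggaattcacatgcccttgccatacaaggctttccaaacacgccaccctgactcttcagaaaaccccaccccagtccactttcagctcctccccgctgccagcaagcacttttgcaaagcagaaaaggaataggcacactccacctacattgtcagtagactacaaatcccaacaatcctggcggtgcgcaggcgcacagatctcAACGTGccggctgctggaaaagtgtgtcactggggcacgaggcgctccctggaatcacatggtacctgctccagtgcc
The Per1 window had 1 E-box, which began 166 bases before the start site. The Per3 window had 2 D-boxes, 205 and 158 bases before it. Cry1 had an E-box 60 bases and an E'-box 79 bases before its start, and Nr1d1 had an E'-box 28 bases before. The RORE of Arntl began at base 27 after the start site in 1 of its 2 windows. Among the members not shown, both windows of Tef had an E-box and Cry2 had an E'-box, while the windows of Clock, Npas2 and Dbp and the second window of Per1 held none of these letters. Of 32851 windows in the table, 7.15% had an E-box, 4.68% an E'-box, 1.06% a D-box, 1.79% a cAMP response element and 0.384% a RORE. A match is a run of letters and not a measured binding site.

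The RNA of each group was read on 1 Agilent array with the dye Cy3, and the unit is the fluorescence intensity of a spot. The authors deposited intensities from which the background had been subtracted but which were not normalized between arrays, and they were scaled here to the 75th percentile of the array, 741 for MHs and 1110 for Sox9+EpCAM- cells. Of 43020 spots, 27523 and 32158 were well above background, and 0 were saturated. With 1 array per group there is no replicate and no test. The only errors available are within an array. Repeated spots of a probe had a median SD of 0.08 on the log2 scale, on both arrays. The scanner software also estimates an error for each spot, which for Per2 was 245 on 2450 for MHs and 269 on 2690 for Sox9+EpCAM- cells. This error is wider than the spot SD, and the multiples of the spot SD given below do not include it. All 10 hepatocyte markers were well above background on both arrays and all 10 were lower on the Sox9+EpCAM- array, except that Apoa1 and Hnf4a turned higher with quantile normalization and Hnf4a also with Gapdh scaling. They ranged from -8.58 for Cyp3a11 to -0.23 for Hnf4a as log2 differences. Of all 21875 genes with a difference between the arrays, 12090 were lower. The Sox9 probe had a signal above background in Sox9+EpCAM- cells and not in MHs. It read 8.87 for MHs and only 60.7 for Sox9+EpCAM- cells, which gives a bound of at least 1.45-fold higher. Epcam, against which these cells were sorted, read 139 for MHs and 2770 for Sox9+EpCAM- cells, 13.3-fold higher after scaling. The RNA of MHs gave a signal well above background for Xist and for 0 of 4 Y-linked genes, which goes against its label male, and that of Sox9+EpCAM- cells for all 4 and not for Xist.

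Compared with MHs, Sox9+EpCAM- cells had at least 4-fold less signal for 2 of the 10 clock genes, the repressor genes Cry1 and Per3, though neither passed 4-fold with normexp background correction or with scaling to Gapdh. None was 4-fold higher. Per1 and Npas2 were more than 2-fold higher, and in 4 of 9 alternatives both were so together. Per1 fell below 2-fold only as the median of its probes, at a log2 difference of 0.76. Npas2 did so with normexp correction, with quantile normalization and in the deposited table, and it had no value with only probes above background on both arrays. The other 6 genes, Arntl, Clock, Per2, Cry2, Dbp and Tef, lay within 2-fold.

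Arntl encodes the obligate partner of the activating pair. Its probe, at 120457261 to 120457320 of chromosome 7 (mm9, the build of the array design), read 142 for MHs and 182 for Sox9+EpCAM- cells in intensity. After scaling, the log2 difference (Sox9+EpCAM- minus MH) was -0.22, where spots of that brightness give an SD of 0.15, and it ranged from -0.40 in the deposited table to 0.02 when the arrays were scaled to Gapdh. The RORE shown above lies in this gene. Clock, which encodes the usual partner of ARNTL, had intensities of 342 and 552 with its probe at 76641377 to 76641436 of chromosome 5. Its log2 difference was 0.11 with a spot SD of 0.11, and it ranged from -0.07 in the deposited table to 0.36 with Gapdh scaling. Both genes of the usual pair stayed within 1.5-fold in all 9 alternatives, on either side of 0.
Npas2, the relative that can take the place of CLOCK, was the exception among the activators. Its probe, at 39418941 to 39419000 of chromosome 1, read 14.2 for MHs, which is not well above background, and 84.2 for Sox9+EpCAM- cells. Against the detection limit of the MH array, 27.8, which is its lowest signal called well above background, the value of Sox9+EpCAM- cells was at least 2.02-fold higher. The bound lies just past 2-fold, and the log2 difference was 0.79 with quantile normalization, 0.84 in the deposited table and 0.22 when low signals were raised by the normexp background correction.

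The 3 Per genes encode the period proteins, the timed component of the repressor complex, and went different ways. Per1 is also known as an early gene that cAMP, glucocorticoids and stress can switch on. It has 2 probes on chromosome 11, 3469 bases apart. The probe at 68919895 to 68919954 read 120 for MHs and 504 for Sox9+EpCAM- cells, 2.80-fold higher after scaling and 10.2 times the spot SD. The probe at 68923364 to 68923423 had 74.3 and 114, a log2 difference of 0.03 that lies within the spot SD of 0.18. The probes therefore differed by 1.45 on the log2 scale, 6.30 times the spot SD, and the increase of Per1 rests on one of them. Of 3274 genes with 2 probes measured on both arrays, 21.4% had a larger gap between their probes, and the median gap was 0.66.
The last 30 bases of each Per1 probe are shown because the probes disagree, and capitals mark a pyrimidine-rich run that ends in CAG.
Per1, probe with the higher value: ctccttgttaaccctgGTCTTTCCCCACAG
Per1, probe without a difference: atttgtgtttttgatattgtgtctgttatt
The first probe is assigned in the array design to a cDNA clone and the second to the RefSeq transcript of Per1. Letters like the marked run are common where an intron ends, but the probe could not be placed in an exon or an intron, since no annotation of mm9 was used here. None of the 13 clock gene probes has 20 consecutive bases in common with the probes of other genes.
Per2, the period gene whose loss shortens or abolishes the rhythm in mice, had intensities of 2450 and 2690 with its probe at 93313046 to 93313105 of chromosome 1. The log2 difference was -0.45, 5.22 times the spot SD but within 1.5-fold. It ranged from -0.62 in the deposited table, which is past 1.5-fold, to -0.20 with Gapdh scaling. Per3, the least required of the family, read 971 for MHs and 343 for Sox9+EpCAM- cells, with its probe at 150379256 to 150379315 of chromosome 4. It was 4.24-fold lower in the latter, with a log2 difference of -2.08 and a spot SD of 0.10. The fold of Per1 over that of Per3 was 11.9 with the higher Per1 probe and 4.34 with the other, and with the higher probe it was 7.33 after normexp correction.

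The cryptochromes, which hold the repression of CLOCK and ARNTL, were split as well. Cry1 read 80.7 for MHs and 25.8 for Sox9+EpCAM- cells, with its probe at 84594731 to 84594790 of chromosome 10. It was 4.69-fold lower, with a log2 difference of -2.23 and a spot SD of 0.21. The Sox9+EpCAM- value is close to 18.4, the detection limit of that array, and with normexp correction the log2 difference was -1.23, smaller than the -1.80 of Per3. Cry2 has 2 probes on chromosome 2. That at 92243807 to 92243866 had 887 and 1580, a log2 difference of 0.25 with a spot SD of 0.09, and that at 92251417 to 92251476 had 202 and 304, a log2 difference of 0.01 with a spot SD of 0.12. Both probes of Cry2 put it near its MH level, and the fold of Cry2 over that of Cry1 was 5.57, or 2.87 with normexp correction.

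Dbp is among the genes with the widest daily swing in the liver and is driven directly by the CLOCK and ARNTL pair. Its 2 probes lie 139 bases apart on chromosome 7. The brighter one, at 52965322 to 52965381, had intensities of 3690 and 5480, a log2 difference of -0.01 with a spot SD of 0.08. The value of the gene changed sign under 4 of 9 alternatives, among them the median of both probes. The other, at 52965461 to 52965520, had 2460 and 4980, a log2 difference of 0.43 with a spot SD of 0.09. Tef, whose protein binds the same D-boxes, had 1890 and 1870 with its probe at 81657221 to 81657280 of chromosome 15. After scaling it was 1.51-fold lower, with a log2 difference of -0.60 and a spot SD of 0.08. Both output genes thus stayed within 2-fold.

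**Figure D1:**
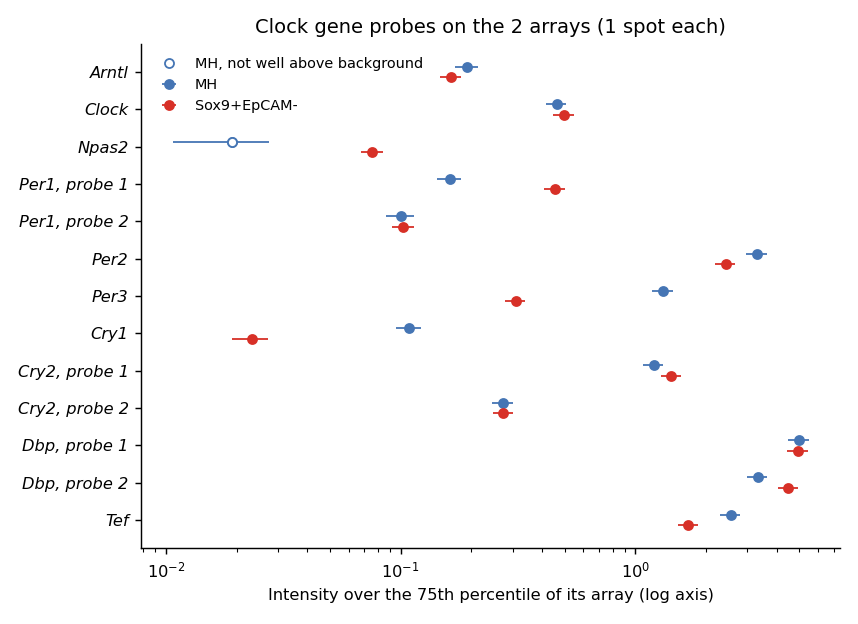
Intensity of each clock gene probe over the 75th percentile of its array, on a log axis, for the MH array (blue) and the Sox9+EpCAM- array (red). Each point is 1 spot, the bars are the error that the scanner software estimates, and the open point is not well above background. Per3 and Cry1 lie to the left on the Sox9+EpCAM- array and probe 1 of Per1 and Npas2 to the right, while probe 2 of Per1 has nearly the same position on both.

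These numbers were read against all genes. At 4-fold, 2 of 10 clock genes were lower, where 5.96% of the 21875 genes with a difference were, and 0 of 10 were higher, where 5.98% were. At 2-fold, 2 of 10 were lower against 17.9% of all genes, and 2 of 10 were higher against 15.2%. In counts, 3319 genes were higher and 3918 lower at 2-fold, and 1309 and 1304 at 4-fold. Scaling to Gapdh turned this to 4298 higher and 2952 lower at 2-fold, and 1634 and 1018 at 4-fold, with 0 of 10 clock genes at least 4-fold lower. The clock genes together were thus close to the background at 2-fold, and with 10 genes the count at 4-fold rests on Cry1 and Per3. Their median log2 difference was -0.12, the same as the -0.12 over all genes, and the median size without sign was 0.52 against 0.64. By role, the median was 0.11 for the 3 activators, -0.45 for the 5 repressors and -0.31 for the 2 outputs. The median of the activators lay 0.56 above that of the repressors, and the single repressor genes Cry1 and Cry2 lay 2.48 apart. A difference of medians and a distance between single genes are unlike measures, so the size of the first cannot be judged by the second.

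**Figure D2:**
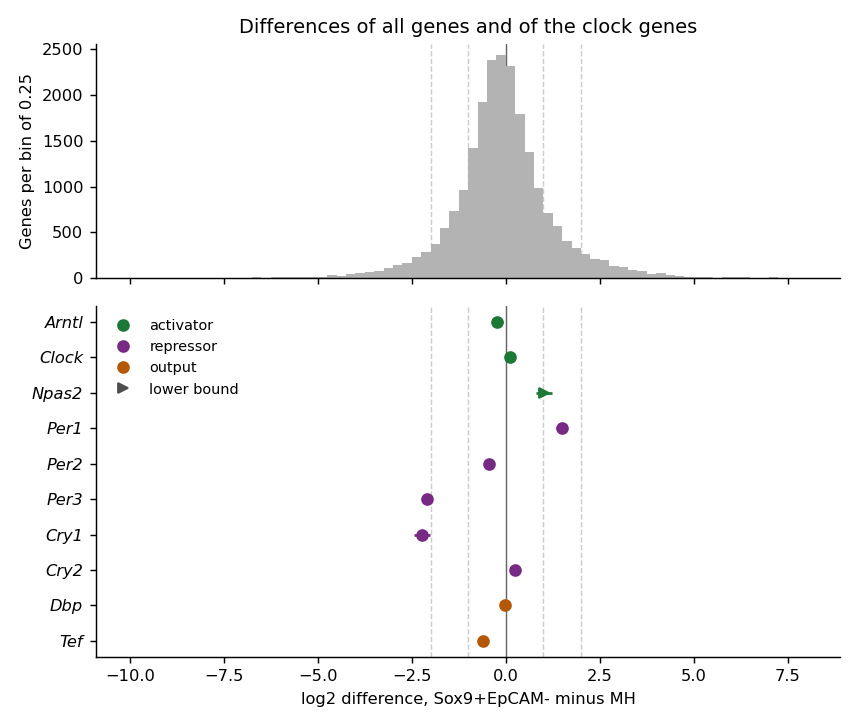
Top, histogram of the log2 differences (Sox9+EpCAM- minus MH) of all 21875 genes with a difference. Bottom, the difference of each clock gene on the same axis, with the probe of highest mean, coloured by role, with bars of 1 spot SD (often smaller than the point), a triangle for the lower bound of Npas2 and dashed lines at 2-fold and 4-fold. Per3 and Cry1 lie past the 4-fold line on the left, and the other 8 genes lie inside the 4-fold lines.

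The loop partners are genes whose products act on the core loop. Of 10 loop partners read on the array, 9 had a difference, and 3 were at least 2-fold higher and 1 at least 2-fold lower, where 15.2% and 17.9% of all genes were. The count of 3 was 2 with normexp correction and with the median of all probes. Nr1d1, whose product REV-ERB alpha represses Arntl through the RORE, read 660 for MHs and 22900 for Sox9+EpCAM- cells. This is 23.2-fold higher, or 4.53 as a log2 difference, while its relative Nr1d2 differed by 0.75 with one probe and 0.13 with the other. The gene of this repressor was thus higher, while Arntl itself differed by -0.22. Rora and Rorb, which encode activators at the same sites, had log2 differences of -0.32 and -0.17, and each turned positive under at least 1 alternative. The other Rora probe had 1.66.
Bhlhe40 and Bhlhe41, also called Dec1 and Dec2, encode repressors that compete at E-boxes. They were 3.20-fold and 2.34-fold higher, with intensities of 409 and 1960 for Bhlhe40 and 178 and 623 for Bhlhe41. The other Bhlhe41 probe had a log2 difference of 0.68. Hlf, the third PAR bZIP factor beside Dbp and Tef, had 1080 and 636 and was 2.54-fold lower. Nfil3, which represses at D-boxes, had a log2 difference of 0.16, which was below 0 in the deposited table. Arntl2, a relative of Arntl, had one of -0.58 with its brightest probe and 2.71 with another, so its 3 probes do not give 1 direction. Ciart, a repressor also called Chrono, read 7.40 for MHs, not well above background, and 25.1 for Sox9+EpCAM- cells, which is under the detection limit of the MH array and gives no bound.

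Among 8 genes whose products act on clock proteins or their stability, 7 had a difference, 2 at least 2-fold higher and 1 at least 2-fold lower, against the same 15.2% and 17.9%, and Gapdh scaling put 4 at least 2-fold higher. Usp2, a ubiquitin protease with a strong daily rhythm in the liver, had intensities of 2700 and 455 and was 8.89-fold lower. Btrc, which marks period proteins, was 3.84-fold higher by its brightest probe, while its other probe had a log2 difference of 0.47. Csnk1e and Csnk1d, the kinases that phosphorylate period proteins, had log2 differences of 1.33 and 0.89, and the 3 probes of Csnk1e ranged from -0.72 to 3.08. The other Csnk1d probe had 1.65. Fbxw11, Gsk3b and Timeless had log2 differences of 0.79, 0.21 and -0.25, and that of Timeless turned positive under Gapdh scaling and as the median of its probes. The other Fbxw11 probe had -0.54, and the highest of the 3 Gsk3b probes had 2.35. Fbxl21 was too dim in MHs and had no bound.

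Of 10 liver genes known to follow the clock or the PAR bZIP factors, 9 had a difference. At 2-fold, 6 were lower and 1 was higher, where 17.9% and 15.2% of all genes were, and their median log2 difference was -1.77 against -0.12 over all genes. Cyp7a1, the rate-limiting enzyme of bile acid synthesis, read 4910 for MHs and 20.4, not well above background, for Sox9+EpCAM- cells, at least 361-fold lower. Cyp2b10, a drug-metabolising enzyme, was 179-fold lower. With normexp correction, which raises low signals, these became 71.4-fold and 66.0-fold. In the same list, Nr1i3, which encodes the receptor CAR, was 9.99-fold lower. Alas1, the first enzyme of heme synthesis, was close to 4-fold lower by its brightest probe and had a log2 difference of 0.27 by the other. Nampt and Por were 3.41-fold and 2.99-fold lower. Wee1, a cell cycle kinase driven through E-boxes, was the exception, at least 3.89-fold higher with intensities of 24.6 and 162, and 1.59-fold higher with normexp correction. Noct and Lpin1 had log2 differences of -0.19 and 0.33, and each changed sign under at least 1 alternative. Their other probes had 1.27 and -0.70. Elovl3 was not well above background on either array. Most of these genes belong to hepatocyte metabolism, and the hepatocyte markers, whose median log2 difference was -1.42, were lower on the same array. The part of hepatocyte content in these values was not tested, and in RNA of many cells, fewer cells of a type and less RNA per cell cannot be told apart.

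**Figure D3:**
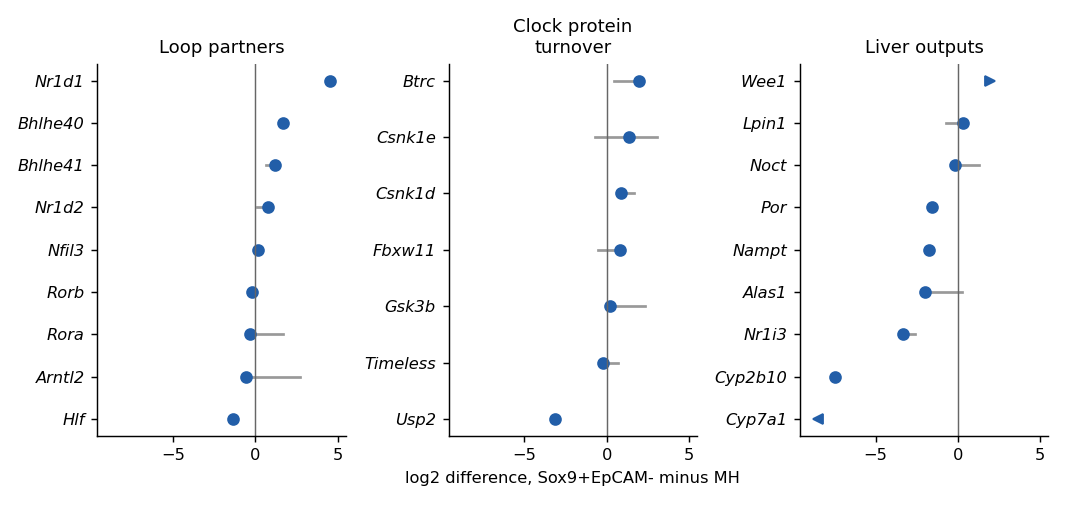
Log2 difference (Sox9+EpCAM- minus MH) of the loop partners, the genes of clock protein turnover and the liver outputs. Points are the probe with the highest mean, triangles are bounds that point in the direction of the difference, and grey lines span all probes of a gene. Nr1d1 stands at 4.53 and Hlf at -1.35 among the partners, Usp2 at -3.15 in the middle panel, and Cyp2b10 and Cyp7a1 at -7.48 and -8.49 in the right panel.

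Clock genes peak at different times, and the values were also arranged by the time at which each is known to peak in mouse liver, a grouping made after the values were seen. Of all 21875 genes with a difference, 9785 were higher and 12090 lower. The genes of the day and evening (Per1, Per2, Per3, Dbp, Tef, Hlf, Nr1d1 and Nr1d2) ranged from -2.08 for Per3 to 4.53 for Nr1d1 on the log2 scale, with 3 of 8 higher and 5 of 8 lower. The genes of the late night and dawn (Arntl, Clock, Npas2, Cry1 and Nfil3) ranged from -2.23 for Cry1 to 1.02, a lower bound, for Npas2, with 3 of 5 higher and 2 of 5 lower. The signs of Arntl, Clock, Dbp and Nfil3 changed under at least 1 alternative.

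Signals that are known to act on Per1 from outside the clock were read on the same arrays. Of 8 early genes that cAMP and stress induce, 6 had over 4-fold more signal in Sox9+EpCAM- cells and 1 was at least 4-fold lower, with a median log2 difference of 3.72, where 5.98% and 5.96% of all genes were past 4-fold. Fos was 24.4-fold, Fosl2 4.68-fold, Junb 69.4-fold and Egr1 21.0-fold higher, against 2.80-fold for the brighter Per1 probe. Sik1, a kinase gene that cAMP induces, was 4.70-fold lower, and the 4 probes of Crem ranged from -0.68 to 0.51 as log2 differences. With Gapdh scaling 0 of the 8 were 4-fold lower. Of 6 glucocorticoid-responsive genes, 0 were 2-fold higher, against 15.2% of all genes, and 3 were at least 4-fold lower, against 5.96%. These were Tsc22d3 by 11.7-fold, or 4.45-fold with normexp correction, Fkbp5 by 4.54-fold and Tat by 5.51-fold. Fkbp5 was not past 4-fold with Gapdh scaling, and Tat was not with quantile normalization. Tat is also among the 10 hepatocyte markers, whose median log2 difference was -1.42. Sgk1 had a log2 difference of 0.71. The part of either signal in the value of Per1 was not tested.
Markers of other cells also differed. Fibroblast markers had a summed intensity before scaling of 8911 in MHs and 49218 in Sox9+EpCAM- cells. At least 4-fold higher were 4 of 6, against 5.98% of all genes. Lum, among these and the only fibroblast marker not detected above background in MHs, was 2.78-fold higher with normexp correction. Of 7 cholangiocyte markers 2 were at least 4-fold higher, Spp1 and Epcam, against the same 5.98% of all genes. Sox9 itself was not detected in MHs. The summed intensity of the 7 before scaling was 1681 in MHs and 54237 in Sox9+EpCAM- cells, and Spp1 made up 86.7% of the latter. Cftr was close to 2-fold lower, Krt7 had a log2 difference of -0.23, or above 0 with Gapdh scaling, and Krt19 one of 0.42. All 7 leukocyte markers were lower in Sox9+EpCAM- cells, with sums of 12675 and 2699, except that Ptprc turned higher with Gapdh scaling. All 5 endothelial markers with a difference were lower too, and the sums over all 6 on the array were 4768 and 2253. Of all 21875 genes with a difference, 12090 were lower. Lyve1 was not well above background on either array, and Cdh5 was not in Sox9+EpCAM- cells. Since clock genes are active in all these cells, the part of cell composition in their values was not tested.

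The 10 differences were computed again under 9 other ways of processing. Per3 and Cry1 stayed lower and Per1 and Npas2 stayed higher in each alternative that gave a value, whereas the sign of Arntl, Clock and Dbp changed in at least 1. Per3 ranged from -2.26 to -1.80 and Per1 from 0.76 to 1.74 as log2 differences, the lowest value of Per1 being the median of its probes.

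**Figure D4:**
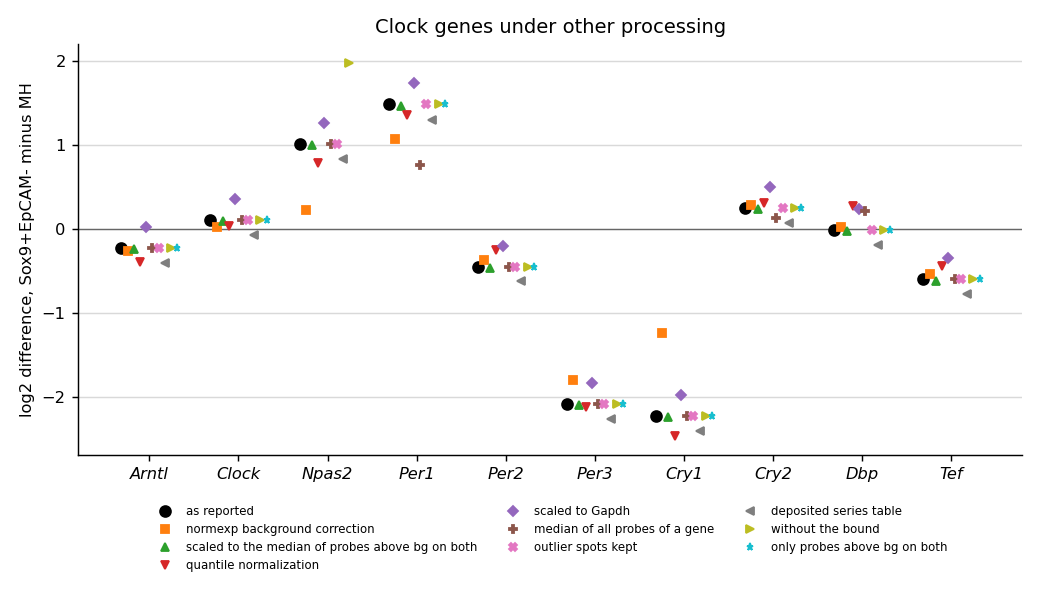
Log2 difference (Sox9+EpCAM- minus MH) of each clock gene as reported (black circle) and under 9 alternatives (coloured symbols). Npas2, Per1 and Cry1 spread most, while Per3 stays between -2.26 and -1.80 and Arntl, Clock and Dbp lie on both sides of 0.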

How the data were processed

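RNA of 1 MH sample and 1 sample of Sox9+EpCAM- cells was profiled on Agilent mouse arrays. The authors deposited spot intensities from Feature Extraction 10.7.3.1, background-subtracted and corrected for trends across the slide but not normalized between arrays, with flags of 0 or 1 (other columns). A second deposited table holds ratio values; set against the intensities, each equals the intensity over its array's median (SD of the log2 factor 0.00176 and 0.00184). Both arrays lay on 1 slide. Probe coordinates are on mm9.

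Control and outlier spots were removed, each array was divided by its 75th percentile, and log2 was taken. The probe with the highest mean of the 2 arrays stands for a gene, and every probe of a clock gene is given. A probe not well above background on 1 array entered as a bound, set by its own signal or by the array's lowest signal well above background, whichever was higher, and a bound below 1-fold was dropped. The rules of size were 4-fold and 2-fold. Spot SDs are the median over the 50 probes of nearest brightness printed at least 8 times. The named genes are the 10 clock genes and the genes of 3 clock lists (2 list genes are not reported here), and up to 4 genes of other lists; Sik1, Crem, Tat, Spp1, Epcam, Krt7, Krt19, Cftr, Ptprc, Apoa1, Cyp3a11, Hnf4a, Lum, Lyve1, Cdh5, Xist and the Per1 probe ends were added after their values were seen. The clock genes and lists were chosen with earlier results of these data known. Of 30153 gene names, 19975 are current symbols in RefSeq (GRCm38.p6), including all 10 clock genes. Python 3.11.15, pandas 2.3.3, numpy 2.4.6 and, for normexp with an offset of 50, limma 3.58.1 in R 4.3.3 were used. The scripts were tested on simulated data. The alternatives were other background correction, scaling, probe choice and filters, and the deposited table. The number of arrays limits the precision.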

Additional observations from a re-analysis of the deposited data

How the results depend on the processing

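The 10 clock genes gave 89 values under the alternatives, of which 85 lay within 1.5-fold of the reported difference. The 4 others were Npas2 with normexp correction, 0.22, and without the bound, 1.98, Cry1 with normexp correction, -1.23, and Per1 as the median of its probes, 0.76. With normexp correction 0 clock genes were at least 4-fold lower and 1 was at least 2-fold higher, and scaling to Gapdh also left 0 at least 4-fold lower. Quantile normalization, the median of all probes, the deposited table and the use of only probes above background on both arrays each left 1 clock gene at least 2-fold higher. The cause was not tested, except that normexp raises low signals by its construction and the last setting removes Npas2. The differences between roles were computed under 4 settings (normexp, median of all probes, without the bound, only probes above background on both arrays) and stayed within 1.5-fold in these. The other Per1 probe was added to the ratio of Per1 to Per3 after seeing the data. Over all genes, normexp gave 612 genes at least 4-fold higher, 660 at least 4-fold lower and 2087 at least 2-fold higher, and genes above background on both arrays 758 at least 4-fold higher. Other settings kept each count over all genes within 1.5 times. The median over genes measured on both arrays was -0.19, and it was 0.06 with Gapdh scaling and -0.37 in the deposited table. Signal over background limits Npas2 and Cry1. With a single array in a group, no slide block and no omission of a replicate could be run. No paired analysis was possible because there is 1 sample on either side.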
